A study of Mus musculus with 6 samples.

Results

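The 10 genes described here encode the core of the neuromuscular junction, the synapse between a motor neuron and a skeletal muscle fibre: the ligand agrin (Agrn), its receptor Lrp4, the receptor kinase Musk, the adaptor Dok7, the scaffold rapsyn (Rapsn), and the acetylcholine receptor subunits Chrna1, Chrnb1, Chrnd, Chrng and Chrne. They were chosen by name from 26180 mouse genes with a curated RefSeq transcript, and the rule uses no measured value. A peak of Lsd1, a histone demethylase, was counted for a gene when the centre of the peak lay within the span of its transcripts or 10 kb either side. By this rule 33 of 43426, 20 of 18893 and 28 of 33533 peaks of the 3 ChIP libraries belonged to the 10 genes.

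The libraries came from C2C12 cells, a mouse myoblast line that can form muscle or, under adipogenic stimulation, turn towards fat, at day 1 of differentiation. Wild-type (WT) cells were kept in myogenic medium with horse serum or in adipogenic medium with isobutylmethylxanthine, indomethacin, dexamethasone, insulin, T3 and rosiglitazone. LSD1(OE) cells were kept in adipogenic medium. They are a separate stable line that carries a tetracycline-inducible Flag-LSD1 construct, was selected with G418 and was given doxycycline before and during differentiation, which is not listed for the WT cells, so that the level of LSD1, the line and doxycycline cannot be told apart. Each condition had 1 ChIP library, made with an antibody to the C-terminus of Lsd1, and 1 input library of its own. There were therefore no replicates, no test between conditions was possible, and every difference given here is a difference between single libraries. The peak lists hold no expression values, so neither the state of the cells nor the transgene could be checked against marker genes. A tag is 1 mapped read. After duplicate filtering, 46155625 tags remained in the myogenic ChIP library, 63915769 in the adipogenic one and 55193310 in that of LSD1(OE) cells, and the weakest peaks held 27, 35 and 30 tags. In the same order, 7.12, 3.2 and 5.28% of the filtered tags lay in peaks. The adipogenic library had the most tags and the fewest peaks, so a missing peak there is read against the lower share of all genes called in that library.

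Agrin released by the nerve binds Lrp4 on the muscle surface, which activates Musk. Dok7 binds Musk from inside the cell and is needed for its activity, and rapsyn then gathers acetylcholine receptors under the nerve ending. The receptor is a pentamer of alpha, beta and delta subunits with gamma in the embryo, which is replaced by epsilon in the adult. Genes of the receptor subunits are switched on when myoblasts differentiate, through E-boxes bound by MyoD and myogenin, and nuclei beneath the synapse keep some of them active through N-boxes bound by ETS factors.

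The sequences at the summits of the strongest peaks are shown so that the letters under Lsd1 can be read beside the values. For each gene the peak with the highest score over the 3 libraries was taken, with 100 bases around its summit, on the strand of the gene and in the mm10 assembly (GRCm38). Capitals mark matches, on either strand, to 5 of the 7 motifs searched: the E-box cores CAGCTG and CACCTG, the N-box core CCGGAA, the TEAD motif CATTCC and the AP-1 motif TGANTCA. The first of these is its own reverse complement, and both E-box cores are forms of CANNTG, which is not capitalised on its own.
Musk, LSD1(OE) peak in intron 6, chr4:58331451-58331550, plus strand: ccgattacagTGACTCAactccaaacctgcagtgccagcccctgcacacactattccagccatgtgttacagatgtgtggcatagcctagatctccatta
Dok7, adipogenic peak upstream of the gene, chr5:35055186-35055285, plus strand: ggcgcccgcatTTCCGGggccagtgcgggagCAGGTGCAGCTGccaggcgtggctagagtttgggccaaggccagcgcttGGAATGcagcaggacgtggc
Chrng, myogenic peak upstream of the gene, chr1:87205588-87205687, plus strand: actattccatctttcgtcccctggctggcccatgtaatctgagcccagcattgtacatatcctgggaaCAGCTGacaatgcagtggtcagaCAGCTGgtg
Chrne, myogenic peak upstream of the gene, chr11:70622102-70622201, minus strand: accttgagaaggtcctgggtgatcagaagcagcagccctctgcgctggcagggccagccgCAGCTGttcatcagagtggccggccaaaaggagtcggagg
Chrnb1, myogenic peak in intron 2, chr11:69795277-69795376, minus strand: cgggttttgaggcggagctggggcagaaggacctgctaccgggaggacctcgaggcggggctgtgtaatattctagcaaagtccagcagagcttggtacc
Agrn, myogenic peak upstream of the gene, chr4:156198036-156198135, minus strand: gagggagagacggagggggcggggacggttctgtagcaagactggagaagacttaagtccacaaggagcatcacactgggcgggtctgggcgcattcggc
The Chrng summit held CAGCTG at 2 places and the Chrne summit at 1. The Dok7 summit held all of these but the AP-1 motif, with CAGCTG printed as such and the others as their reverse complements. The E-box cores lie directly beside each other there. The Musk intron held TGACTCA, while none of the 5 lay in the 100 bases at Chrnb1 or Agrn. The summits of Rapsn, Chrna1 and Chrnd overlap a UTR and are not printed, nor is that of Lrp4.

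For the promoters, the 150 bases before the start of 3 genes are shown from RefSeq (GRCm38.p6), because Musk and Chrna1 had a promoter peak in every library and Chrne had none, while all 3 hold CAGCTG. This set was chosen after the values were seen.
Musk, chr4:58285812-58285961, plus strand: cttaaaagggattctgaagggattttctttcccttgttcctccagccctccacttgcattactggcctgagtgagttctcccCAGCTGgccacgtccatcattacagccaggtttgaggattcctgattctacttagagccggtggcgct
Chrna1, chr2:73580339-73580488, minus strand: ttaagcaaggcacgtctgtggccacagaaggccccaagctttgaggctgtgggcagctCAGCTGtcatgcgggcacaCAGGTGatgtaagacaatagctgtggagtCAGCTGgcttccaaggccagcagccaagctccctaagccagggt
Chrne, chr11:70619195-70619344, minus strand: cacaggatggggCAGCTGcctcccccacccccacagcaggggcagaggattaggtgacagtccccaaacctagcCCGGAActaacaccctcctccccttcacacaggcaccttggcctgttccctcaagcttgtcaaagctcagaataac
Counted from the transcription start site (TSS), the first base of CAGCTG lay at -68 in Musk, at -92 and -44 in Chrna1, and at -138 in Chrne. The first base of CCGGAA in Chrne lay at -76. A match is a description of the letters and not evidence of binding.

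Lsd1 peaks lay at nearly all of the 10 genes in each library. In myogenic medium 10 of 10 genes had a peak in the span or its flanks, against 62.5% of all genes. In adipogenic medium it was 9 of 10, all but Agrn, against 41.2%, and for LSD1(OE) cells 9 of 10, all but Chrne, against 53.9%. A promoter peak, with its centre within 2000 bp of a TSS, was found at 9 genes in myogenic medium (46.8% of all genes), at 8 in adipogenic medium (27.0%) and at 9 for LSD1(OE) cells (37.3%). Chrne had no promoter peak in any library, and Agrn had none in adipogenic medium. The remaining 8 genes (Lrp4, Musk, Dok7, Rapsn, Chrna1, Chrnb1, Chrnd and Chrng) had one in all 3 libraries, as did 23.5% of all genes. Of genes with a myogenic promoter peak, 55.7% of all genes and 8 of the 9 junction genes also had an adipogenic one, and 73.3% of all genes and 9 of 9 had one in LSD1(OE) cells.

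**Figure D1:**
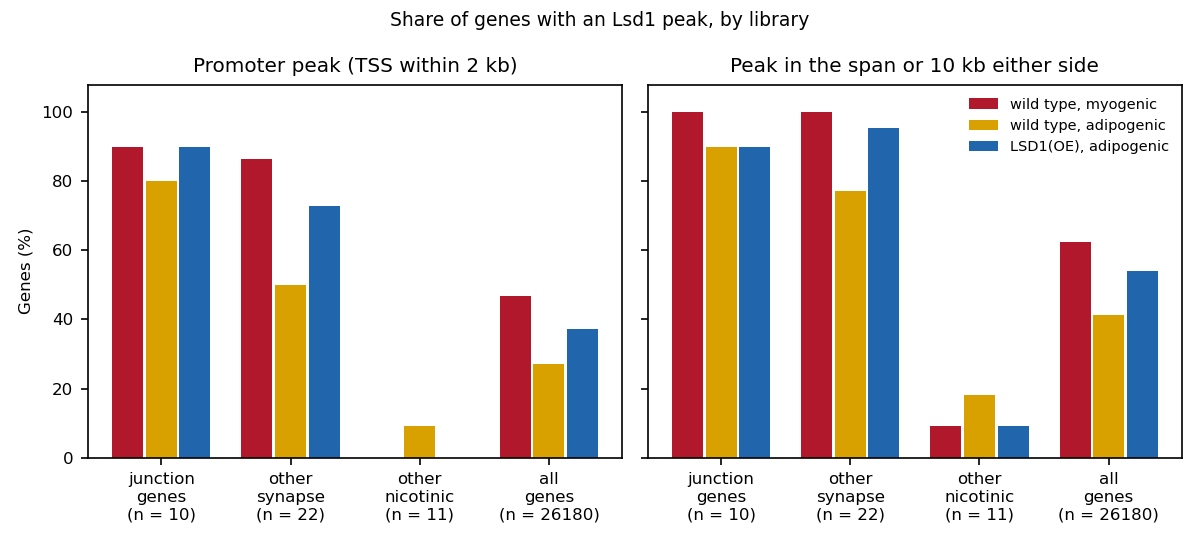
Bars give the share of genes (%) with an Lsd1 promoter peak (left) or a peak in the gene span or 10 kb either side (right) for the 10 junction genes, 22 other synapse genes, 11 other nicotinic receptor genes and all 26180 genes, in 3 libraries. The junction genes stand at 90, 80 and 90% for promoter peaks, against 46.8, 27.0 and 37.3% of all genes, and the other nicotinic genes have 1 promoter peak, in adipogenic medium.

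The 10 genes had a median of 3, 2 and 2 peaks in the myogenic, adipogenic and LSD1(OE) libraries, against 1, 0 and 1 over all genes, with windows of similar length (a median of 34.5 and 33.5 kb). The counts per gene went in different directions. Dok7 had 6 peaks in myogenic medium, 2 in adipogenic medium and 1 for LSD1(OE) cells, whereas Musk had 5, 4 and 8 and Chrnd had 4, 5 and 8. Of all genes, 2.43% had 8 or more peaks in LSD1(OE) cells, without regard to the length of the window. Musk has the longest window of the 10 genes, far above the median of all genes, so this share is not a like comparison for it. In every library, most peaks in the Chrnd window were nearest to the TSS of Prss56 or Chrng and not to that of Chrnd. Some peaks belonged to a neighbour by distance: the nearest TSS was that of a junction gene for 23 of 33, 15 of 20 and 22 of 28 peaks. The windows of Chrnd and Chrng, which are adjacent on chromosome 1, overlap, and their shared peaks are counted once in the totals.

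**Figure D2:**
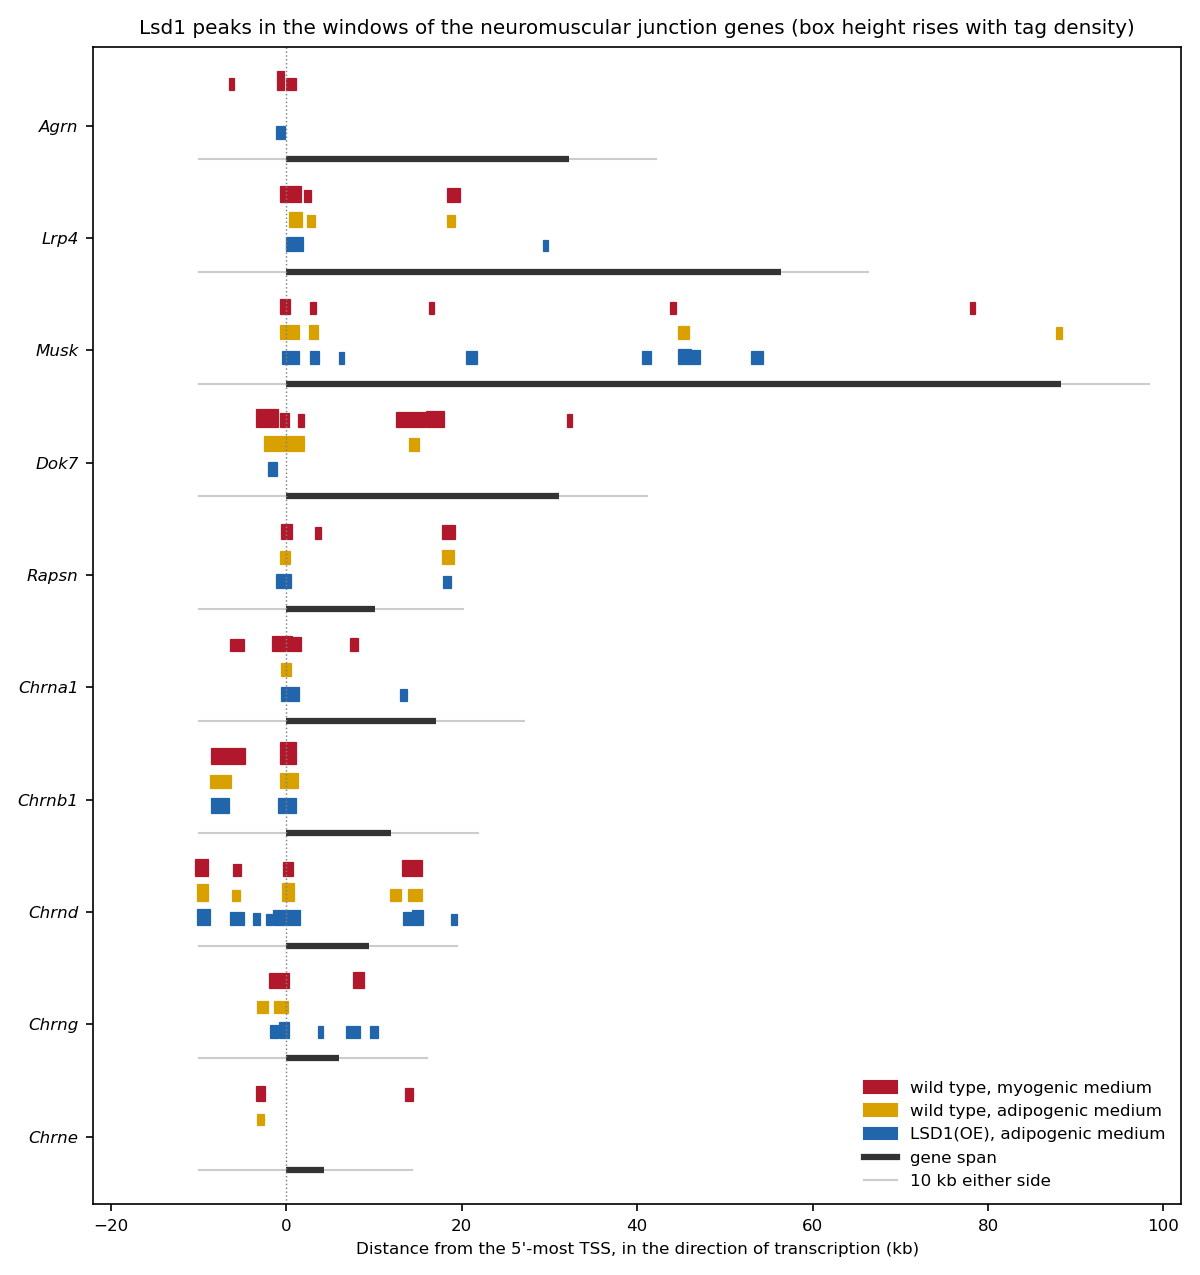
Each row is 1 gene, with the distance from its 5'-most TSS in kb along the x axis, boxes for the peaks of the 3 libraries (taller boxes have a higher tag density), a dark line for the gene span and a pale line for the 10 kb on either side. Boxes of all 3 colours meet near 0 in 8 rows, the LSD1(OE) boxes of Musk run through the first 60 kb of the gene, and Chrne has no box at its start.

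Joined across libraries wherever they overlapped, the peaks formed 44 regions. Of these, 13 held a peak in all 3 libraries, and 8 of the 13 were promoters. Another 11 were called in myogenic medium alone, 11 in LSD1(OE) cells alone and 2 in adipogenic medium alone. Over all 56729 regions of the genome joined in the same way, 20.6% held a peak in all 3 libraries, against 29.5% here. Regions of myogenic medium alone made up 35.9%, against 25% here, those of LSD1(OE) cells alone 20.8%, against 25%, and those of adipogenic medium alone 3.7%, against 4.55%. In each of the myogenic and LSD1(OE) sets, 1 region was a promoter. The share of promoters was not counted over all regions of the genome. These counts of promoters among regions therefore have no share to be read against, and nothing is concluded from them. Regions found in a single library were mostly weak: 9 of the 11 myogenic ones had a score under 100, where the score is 10 times the -log10 of the MACS p-value and the limit for calling is 50. The exceptions were an intron 4 peak of Dok7 with a score of 513 and a peak upstream of Chrna1 with 166. Of the 11 in LSD1(OE) cells alone, 7 had a score under 100, and the 4 above it all lay in introns of Musk. The library medians for all peaks were 122, 112 and 116.

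The ligand Agrn (chr4:156165290-156197488, minus strand) was the only 1 of the 10 genes without a peak in adipogenic medium. Its promoter peak, 632 bp (myogenic) upstream of the outer of its 2 TSSs, held 66 tags in myogenic medium (score 319) and 64 tags in LSD1(OE) cells (score 141). Per kb of peak and per 1000000 ChIP tags, a tag density that allows for depth, this was 1.91 (exact 95% Poisson interval 1.48 to 2.43) in myogenic medium and 1.2 (0.925 to 1.53) in LSD1(OE) cells. These intervals overlap, and here as elsewhere they cover counting error only. In myogenic medium alone, a further peak of 54 tags lay in intron 1 and a peak of 28 tags lay far upstream, nearer to the TSS of AW011738. The adipogenic peak with the fewest tags in the genome held 35, so signal below the limit of calling cannot be seen in that list.

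Its receptor Lrp4 (chr2:91457531-91513901, plus strand) had similar promoter values in every library. The peak in intron 1 held 167 tags in myogenic medium, 139 in adipogenic medium and 141 for LSD1(OE) cells, which gave densities of 1.5, 1.44 and 1.34. The Poisson intervals of the 3 densities overlap. The score fell in another order, 552, 296 and 373, since it also depends on the input and on how far MACS scaled the ChIP tags. A second peak in intron 1 and a peak around exon 9 were called in both WT libraries and not in LSD1(OE) cells, whose only other Lrp4 peak held 30 tags.

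The kinase Musk (chr4:58285962-58374303, plus strand) had a promoter peak in all 3 libraries, with 82 tags in myogenic medium, 183 in adipogenic medium and 128 for LSD1(OE) cells. The scores were 281, 284 and 292, and 148, 223 and 160 when divided by the scaling of the ChIP tags, while the densities were 1.51, 1.33 and 1.21, with overlapping intervals. The peaks inside the gene separated the libraries more. LSD1(OE) cells had 7 further peaks in the introns, from 3218 to 53661 bp after the TSS, with 38 to 109 tags each. Of these, 5 formed regions without a WT peak, at 6303, 21101, 41028, 46656 and 53661 bp. Their scores were 68.8, 141, 109, 168 and 152. With the scores divided by the scaling of the ChIP tags, the weakest of these came to 37.7, under the limit of calling, and the others to 59.7 to 92.2. The strongest intronic peak, in intron 6 at 45398 bp, held 109 tags in LSD1(OE) cells (score 297) and 98 in adipogenic medium (score 149). It had no overlapping myogenic peak. In myogenic medium, the 4 peaks in the introns held 27 to 32 tags and scores of 54.7 to 61.8, close to the limit of calling. The peak nearest to the promoter in intron 1 was called in all 3 libraries, with 29, 85 and 59 tags.

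The adaptor Dok7 (chr5:35056766-35087839, plus strand) had the most peaks in myogenic medium and the promoter peak with the most tags in adipogenic medium. In myogenic medium, the start of the gene was covered by 3 separate peaks. The strongest, with 204 tags and a score of 827, had its centre 2179 bp upstream of the TSS, just outside the promoter window, and the peak at the TSS held 62 tags (score 163). In adipogenic medium, a single peak of 4491 bp covered most of the same stretch, with 427 tags and a score of 953. In LSD1(OE) cells only an upstream peak of 1053 bp was called, with its centre 1534 bp upstream, 77 tags and a score of 204. The strongest peaks with their centre in the promoter window had densities of 1.28, 1.49 and 1.32, but the myogenic and LSD1(OE) ones lie at different places. The LSD1(OE) peak lies within the myogenic peak of 204 tags, whose density was 1.73. The 3 myogenic peaks together had a density of 1.52. Inside the gene, intron 4 held myogenic peaks of 211 and 145 tags, with scores of 639 and 513. The adipogenic library had 1 peak there, of 83 tags (score 128), and the LSD1(OE) library had none.

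The scaffold Rapsn (chr2:91035627-91045729, plus strand) had its promoter peak in all 3 libraries, with 78 tags in myogenic medium, 72 in adipogenic medium and 123 for LSD1(OE) cells. The scores were 160, 90.9 and 320. The adipogenic peak was the weakest of all adipogenic promoter peaks of the 10 genes and is lost at an FDR of 0.1% or a score of 100. The densities of 1.4, 1.08 and 1.33 had overlapping intervals. A further peak of 92, 105 and 62 tags lay downstream, at the start of Psmc3, a proteasome subunit gene, and is nearer to that TSS.

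Among the receptor subunits, Chrnb1 (chr11:69784036-69795937, minus strand) stood out for its density in myogenic medium. Its promoter peak held 197 tags in myogenic medium, 197 in adipogenic medium and 168 for LSD1(OE) cells. With the depth of each library this gave densities of 2.32 (2.01 to 2.67), 1.47 (1.27 to 1.69) and 1.5 (1.29 to 1.75). The myogenic interval did not overlap either of the others. Densities were lower in adipogenic than in myogenic medium at most such peaks of the genome, as given below. The myogenic score of 1152 was the highest of any peak at the 10 genes, above 95% of myogenic promoter peaks. A broader peak upstream, with 265, 194 and 158 tags, lay at the starts of Fgf11 and G630025P09Rik and is nearer to them.

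Chrna1 (chr2:73563281-73580338, minus strand), the subunit that binds acetylcholine, had promoter tags of 152 in myogenic medium, 87 in adipogenic medium and 146 for LSD1(OE) cells. The densities were 1.45, 1.2 and 1.26, and their intervals overlap. In myogenic medium a further promoter peak of 65 tags lay in intron 1. It was overlapped by the single peak of 2096 bp in LSD1(OE) cells, whereas the adipogenic peak was 1131 bp long. The antisense gene Chrna1os starts nearby, and a myogenic peak of 82 tags upstream of Chrna1 is nearer to its TSS. ChIP-seq carries no strand, so the peaks cannot be assigned to either gene.

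Chrnd (chr1:87190597-87200070, plus strand), the delta subunit, was lowest in myogenic medium, where Chrnb1 was highest. Its promoter peak held 73 tags in myogenic medium, 152 in adipogenic medium and 252 for LSD1(OE) cells, with scores of 208, 423 and 817. The densities were 1.35 (1.06 to 1.69), 1.73 (1.47 to 2.03) and 1.49 (1.31 to 1.68). Both adipogenic-medium libraries had the higher densities, but all 3 intervals overlap, and the LSD1(OE) peak was the longest, at 3066 bp against 1371 and 1174. With the score divided by the scaling of the ChIP tags, the order of the scores stayed the same (110, 331 and 448). LSD1(OE) cells also had 2 weak peaks upstream that neither WT library had, with 48 and 38 tags, the latter centred 1991 bp from the TSS. A peak farther upstream was called in every library, with 121, 137 and 146 tags and densities of 1.72, 1.69 and 1.68. It is nearer to Prss56, a serine protease gene.

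Chrng (chr1:87205811-87211835, plus strand), the embryonic gamma subunit, lies just downstream of Chrnd. Its density, like that of Chrnb1, was highest in myogenic medium, but its LSD1(OE) value lay near the myogenic one, whereas at Chrnb1 it lay near the adipogenic one. Its promoter peak held 162 tags in myogenic medium, 107 in adipogenic medium and 98 for LSD1(OE) cells, and the last had a second promoter peak of 65 tags beside it. The densities were 1.54 (1.31 to 1.79), 1.04 (0.855 to 1.26) and 1.48 (1.2 to 1.80). The adipogenic interval did not overlap the myogenic one and overlapped that of LSD1(OE) cells. Over all pairs of overlapping WT peaks compared below, 88.4% were lower in density in adipogenic medium. The log2 ratio of the Chrng pair was -0.56, and 20.2% of all pairs lay below it. The scores were 558, 123 and 309. Peaks downstream, called with 95 tags in myogenic medium and with 85 tags in LSD1(OE) cells, lay at the start of Eif4e2, a cap-binding protein gene.

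Chrne (chr11:70614883-70619194, minus strand), the adult epsilon subunit, was the exception among the subunits. Its nearest peak was centred 2972 bp upstream in myogenic medium, with 67 tags (score 205), and 2931 bp upstream in adipogenic medium, with 54 tags (score 53.2 and an FDR of 0.66%). No peak was called in LSD1(OE) cells. That peak also lies in the windows of Mink1 and 4930544D05Rik. The other peak of its window, with 47 tags in myogenic medium, lay downstream of the gene.

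**Figure D3:**
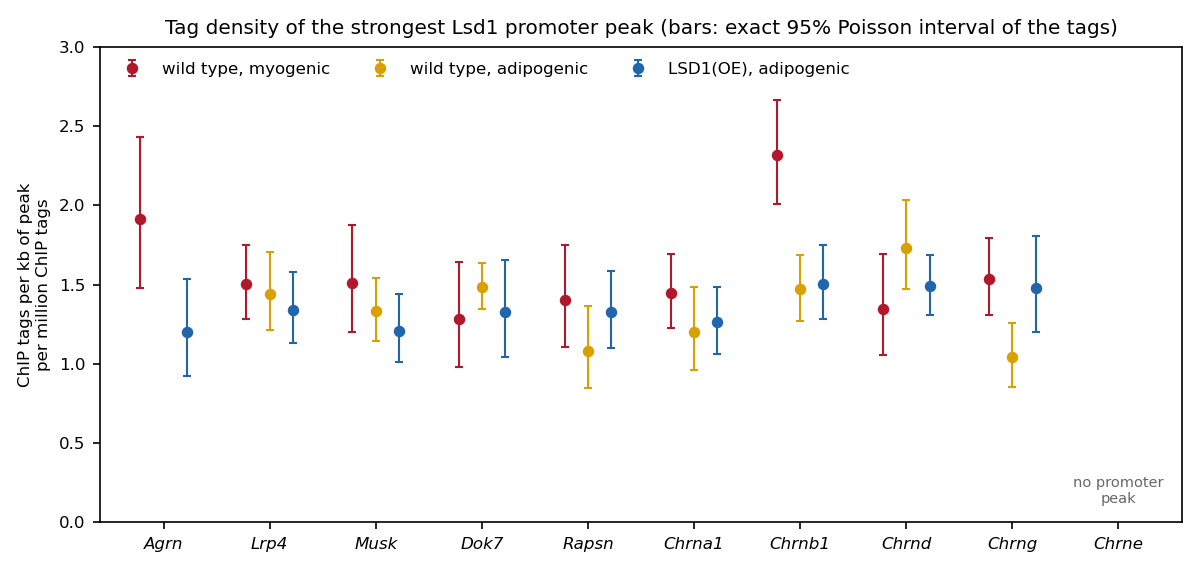
Points give the tag density of the strongest promoter peak of each gene in 3 libraries, in ChIP tags per kb of peak per 1000000 ChIP tags, with exact 95% Poisson intervals of the tag count. The myogenic points of Chrnb1 (2.32) and Agrn (1.91) lie highest, Chrnd is highest in adipogenic medium (1.73), Agrn has no adipogenic point and Chrne has no points.

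The promoter peaks of the 10 genes were of ordinary to high strength for promoter peaks. The median score of all promoter peaks was 257, 131 and 177 in the myogenic, adipogenic and LSD1(OE) libraries, and 6 of 9, 6 of 8 and 8 of 9 genes with one were above it. They ranged from 160 to 1152 in myogenic medium, from 90.9 to 953 in adipogenic medium and from 141 to 817 in LSD1(OE) cells. All peaks of the windows, promoters included, passed the library's median score in 60.6, 60.0 and 64.3% of cases.

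Where a peak overlapped exactly 1 peak of another library, and that peak overlapped no other of the first, the densities of the pair were compared. Between adipogenic and myogenic medium in WT cells, 16 such pairs at the 10 genes had a median log2 ratio of -0.21, and 14 of the 16 (87.5%) were lower in adipogenic medium. Over all 12937 such pairs the median was -0.33 and 88.4% were lower, so the share at the junction genes was close to that of the whole library. The exceptions were the Chrnd promoter (0.36, higher than 99.5% of all pairs) and the Musk peak in intron 1 after the promoter (0.28, higher than 98.8%). The lowest was the Chrnb1 promoter (-0.66), which 11.9% of all pairs lay below. Between LSD1(OE) cells and WT cells in adipogenic medium, 7 of 13 pairs were lower in LSD1(OE) cells (a median of -0.0034), against 29.7% of 11901 pairs overall (a median of 0.13). The gap between the medians rested on the division by peak length: in tags per 1000000 ChIP tags alone, they were 0.23 and 0.21. The share that was lower was then 6 of 13 (46.2%), against 37.3% overall. By that measure 13 of the 16 WT pairs were lower in adipogenic medium, with a median of -0.53 against -0.49 overall. Between LSD1(OE) and myogenic cells, 10 of 13 (76.9%) were lower in density, against 74.9% of 16605. In tags per 1000000 ChIP tags, 7 of 13 (53.8%) were lower, against 65.4%. Because a pair enters only if both libraries called it, weak peaks of either one are left out.

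**Figure D4:**
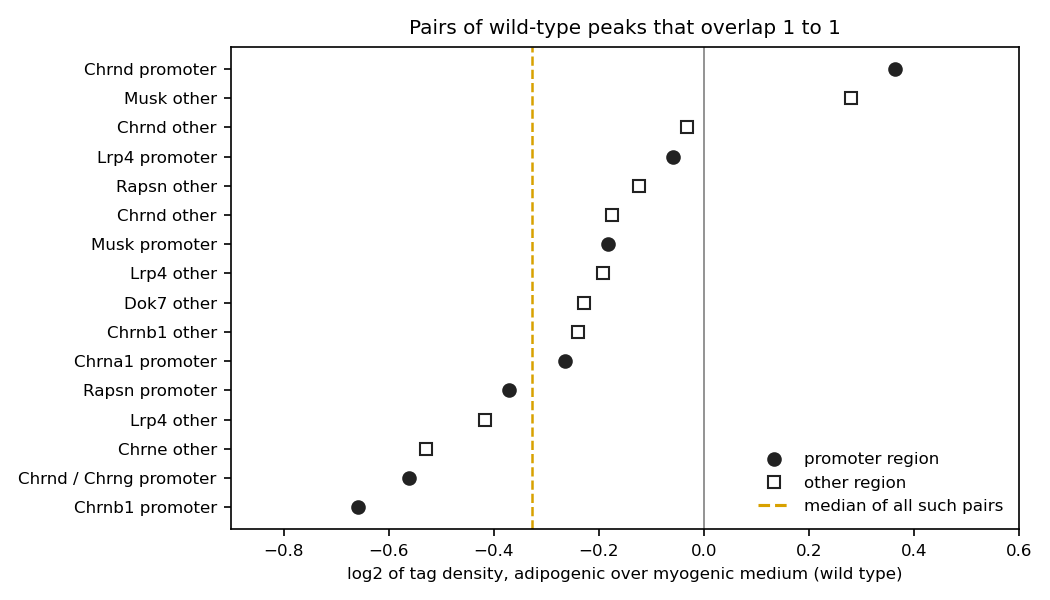
Each row is 1 of the 16 pairs of WT peaks that overlap 1 to 1, and the x axis gives the log2 ratio of tag density, adipogenic over myogenic medium, with filled circles for promoters and open squares for other regions. The dashed line is the median over all such pairs (-0.33), and of these 16 only the Chrnd promoter (0.36) and 1 Musk pair (0.28) lie above 0.

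A list of 22 further genes of the synapse was examined, taking in acetylcholinesterase and its collagen anchor, the neuregulin pathway, partners of Musk and Dok7 and parts of the postsynaptic scaffold. A peak lay at 22 of them in myogenic medium, 17 in adipogenic medium and 21 for LSD1(OE) cells, and a promoter peak at 19, 11 and 16. The shares of all genes are those given above, 46.8, 27.0 and 37.3% for promoters. Promoter peaks in all 3 libraries were found at 11 genes, among them Nrg1 and its receptor gene Erbb3, the ETS factor gene Etv5, the laminin gene Lamb2, the adaptor gene Crk, the chaperone gene Dnaja3, the kinase genes Abl1, Abl2 and Pak1 and the adhesion gene Ncam1. The myogenic and LSD1(OE) libraries shared a promoter peak that adipogenic medium lacked at Gabpa, an ETS factor gene, and at the neuregulin co-receptor gene Erbb2, the adaptor gene Crkl, the Wnt pathway gene Dvl1 and the syntrophin gene Sntb2. Of all 26180 genes, 8975 had a promoter peak in both the myogenic and LSD1(OE) libraries, and 6155 had one in all 3. The adipogenic library had the fewest peaks, so this pattern is not read as a trait of the genes named. Ache, which encodes acetylcholinesterase, the planar polarity gene Vangl2 and the sodium channel gene Scn4a had a promoter peak in myogenic medium alone. These were weak, with scores of 103, 71.9 and 83.3, against a median of 257 for all myogenic promoter peaks. Outside its promoter, Ache had a stronger peak in every library, with scores of 716, 313 and 547. Colq, Macf1 and Utrn had peaks in every library and none at a promoter.

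Among the highest myogenic scores on this list, Erbb3 had 1648, Utrn 1095, Crk 875 and Erbb2 830. These 4 were lower in the adipogenic list, where Erbb3 had 405, Utrn 213 and Crk 93.6, and Erbb2 had no peak. The LSD1(OE) scores were 1232, 573, 455 and 127. Each score is that of the strongest peak in the window of the gene, which can be a different peak in each library. At the Erbb3 promoter the scores were 952, 405 and 1232 in the myogenic, adipogenic and LSD1(OE) libraries. The 3 libraries differ in depth and in the scaling of the ChIP tags, so these scores are not on 1 scale.

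The other nicotinic receptor genes, which encode mainly neuronal subunits, rarely had a peak. Of 11 such genes, 9 had no peak in any library. Chrnb2 had 1 peak outside its promoter in each library, with 119, 117 and 109 tags. Chrna9 had an adipogenic promoter peak with a score of 74.2. No promoter peak was found in the myogenic and LSD1(OE) libraries, where 46.8 and 37.3% of all genes had one.

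Lsd1 promoter peaks were called more often at promoters rich in CpG, and the junction genes fell into both classes. RefSeq promoter sequences, from 250 bases before to 50 after a start, matched 7 of the 10 genes. The ratio of observed to expected CpG was under 0.6 for Musk (0.395), Chrna1 (0.312), Chrng (0.0758) and Chrne (0.0407), taking the higher value where a gene has several starts. Among all 9982 genes in that class, 21, 10.7 and 16.3% had a promoter peak in the myogenic, adipogenic and LSD1(OE) libraries. Of these 4 junction genes, 3 had one in each library. Among the 9546 genes at or above 0.6 the shares were 78.7, 47.1 and 62.6%. The 3 junction genes of this class were Agrn (0.867), Dok7 (0.881) and Chrnb1 (0.631). All 3 had a promoter peak in the myogenic and LSD1(OE) libraries, and 2 of them, all but Agrn, in the adipogenic one.

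Motifs were counted in the 301 bases around the summit of each peak. CAGCTG, present in 25.9% of all myogenic peaks, was in 16 of 33 peaks of the junction genes (48.5%). In adipogenic medium it was in 8 of 20 (40.0%, against 29.3%), and in LSD1(OE) cells in 9 of 28 (32.1%, against 26%). CCGGAA was in 7 of 33 (21.2%, against 8.86%), 4 of 20 (20.0%, against 9.82%) and 4 of 28 (14.3%, against 8.57%). Around the centre of the peak in place of the summit, the myogenic counts were 11 of 33 for CAGCTG (33.3%, against 24.3%) and 2 of 33 for CCGGAA (6.06%, against 8.94%). In LSD1(OE) peaks CAGCTG was then in 5 of 28 (17.9%), under the 24.3% of all peaks, so neither motif was above the share of all peaks in every library and window. In myogenic peaks CACCTG was in 27.3%, against 22.7% of all peaks, the AP-1 motif in 15.2%, against 19.0%, and the TEAD motif in 15.2%, against 17.7%. CANNTG was in 78.8%, against 79.7%, and the MEF2 motif in 2 of 33 peaks (6.06%), against 4.01%. Several peaks come from 1 gene and overlap between libraries, so they are not independent. Of 32851 RefSeq promoters, 16.3% held CAGCTG and 14.9% CCGGAA. The 7 matched genes have 9 promoters among these. CAGCTG was found in 4 of the 9, at Musk, Chrna1, Chrng and Chrne, and CCGGAA in 1, at Chrne. The other motifs were in 72.3% (CANNTG), 20.2% (CACCTG), 7.81% (AP-1), 14.7% (TEAD) and 3.69% (MEF2) of all promoters. Of the 9 promoters here, 7, 2, 1, 1 and 0 held them, in the same order. Of the genes with CAGCTG, Chrne was the gene with no Lsd1 promoter peak.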

How the data were processed

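Lsd1 was measured by ChIP-seq in 3 ChIP libraries with 3 inputs. The authors sequenced 50 bp single reads, mapped them to mm10 with Bowtie (per the labels, Bowtie2) and called peaks with MACS 1.4.2 (per the file headers; the labels give 1.41), each ChIP against its own input at a p cutoff of 1e-05. The deposited lists give per peak a count of ChIP tags after duplicate filtering, not normalized, a score (10 times -log10 of the p-value, computed by MACS after raising the smaller of ChIP and input to the size of the larger), a fold enrichment over the local background, which was not used, and an FDR in percent. All deposited peaks have an FDR under 1% and were used; the BED copies of the lists were not.

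Genes were placed with curated RefSeq transcripts of GRCm38.p6 (31647 TSSs). A promoter is 2000 bp either side of a TSS, as in the study's methods. Peaks of different libraries were joined where they shared 1 bp. Tag densities are tags per kb of peak per 1000000 filtered ChIP tags, with exact 95% Poisson intervals for counting error. All 10 genes are named, and of the further lists the genes with a promoter peak and the 5 highest myogenic scores, apart from 1 gene that is not reported here by name. Genes and lists were chosen with earlier results of these data known. With 1 library a condition no p-value was computed. Alternatives were stricter limits, equal peak numbers, unscaled scores (the score over the input-to-ChIP ratio, with 50 as the minimum), other windows, assignments and annotation, and other motif windows. The steps were tested on simulated peaks. Python 3.11.15, NumPy 2.4.6, pandas 2.3.3, SciPy 1.17.1 and pysam 0.24.0 were used.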

Additional observations from a re-analysis of the deposited data

How the results depend on the processing

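Promoter peaks at the 10 genes kept to within 1 gene of the main counts of 9, 8 and 9 (myogenic, adipogenic, LSD1(OE)) under every alternative run, and the number of genes with any peak likewise. At an FDR of 0.1%, 39.3, 16.0 and 25.3% of all genes had a promoter peak. With equal peak numbers the shares were 36.4, 27.0 and 29.1%. Counts of peaks and regions depended more on the limits. Stricter limits are an FDR of 0.1%, a score of 100, the 18893 strongest peaks of each library, and scores without scaling of the ChIP tags. Myogenic peaks fell from 33 to 20 under each of these. Adipogenic peaks fell from 20 to 12 at the FDR limit and 13 at the score limit, and LSD1(OE) peaks from 28 to 16 at the FDR limit. In the order given, the 44 regions became 23, 25, 28 and 26, the 11 found in myogenic medium alone became 5, 4, 2 and 4, and the 11 in LSD1(OE) cells alone became 4, 5, 4 and 5. With windows of 25 kb, myogenic peaks were 52 and regions in myogenic medium alone 19, and with peaks given only to the nearest TSS the latter were 6. The 17 further synapse genes with an adipogenic peak became 9 at the FDR limit. Of the other nicotinic genes, 0 had a myogenic or LSD1(OE) peak with 5 kb windows or the nearest TSS only, 3 and 2 had one with 25 kb windows, and 2 had a myogenic one with GENCODE basic transcripts, an alternative chosen after seeing the data. Adipogenic peaks were at 1 of them under either of the first pair of limits, 5 kb windows or the nearest TSS. The shares of all genes with any peak under these alternatives are not given here, so these counts have no share to be read against. Motif counts rose when the whole peak was searched, which is longer: in myogenic peaks to 21 for CACCTG (63.6%, against 55.4% of all peaks), 12 for CCGGAA (36.4%, 22.6%), 13 for TGANTCA (39.4%, 39.1%) and 18 for CATTCC (54.5%, 46.3%). In adipogenic peaks they rose to 14 for CAGCTG (70.0%, 60.9%), 13 for CACCTG (65.0%, 64.1%), 9 for TGANTCA (45.0%, 44.8%), 13 for CATTCC (65.0%, 50.9%) and 3 for the MEF2 motif (15.0%, 16.2%). In LSD1(OE) peaks they rose to 18 for CAGCTG (64.3%, 53.7%), 19 for CACCTG (67.9%, 57.8%), 10 for CCGGAA (35.7%, 22.8%), 12 for CATTCC (42.9%, 46.6%) and 4 for the MEF2 motif (14.3%, 14.4%). Around the centre, CCGGAA was in 2 of 33 myogenic peaks (against 8.94% of all peaks) and 2 of 20 adipogenic ones (against 9.65%). CATTCC was in 3 of 20 adipogenic peaks (against 16.9%) and 7 of 28 LSD1(OE) peaks (against 16.6%). The MEF2 motif was in 2 of 20 adipogenic peaks (against 3.28%) and 1 of 28 LSD1(OE) peaks (against 3.57%). In LSD1(OE) peaks, CAGCTG was in 5 of 28 (against 24.3%) and TGANTCA in 3 of 28 (against 16.6%). No paired analysis was possible because each condition has 1 ChIP library and no test was run.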
